A study of Mus musculus with 4 samples.

Results

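The genes described are 10 genes of major histocompatibility complex (MHC) class I and antigen processing: H2-K1, H2-D1, H2-T23, B2m, Tap1, Tap2, Tapbp, Psmb8, Psmb9 and Psmb10. They were found by their gene symbols in the platform annotation, which gave 30 of the 22690 probe sets on the array. A probe set is a group of short probes that reads 1 transcript or a few like ones. Of the 30 probe sets, 25 carried 1 symbol and 5 carried several, and 23 lay above a limit for dim signal of log2 5.40, the 40th percentile of all probe sets. H2-T23 was read only by probe sets that are also annotated to H2-T-ps, so its values are those of a shared probe set. The other 9 genes were among 8031 genes tested, each through its brightest probe set with 1 symbol.

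The samples were hair follicle stem cells sorted from back skin of female mice of CD1/C57BL/6 strain at about postnatal day 60, by YFP, integrin α6 and CD34. There were 2 groups of 2 arrays: cells of Tbx1 cKO mice, conditional knockouts of a T-box transcription factor gene, and cells of WT mice. The titles number 1 array of each group as set 1 and 1 as set 2. The descriptions call set 1 quiescent and set 2 activated, although the treatment text has all 4 samples taken 48 h after wax depilation, which starts hair growth. As the state of set 1 is thus unclear, the sets are named by number. The labels do not name the Cre driver of the cKO or its alleles, nor say whether cells of several mice were pooled. Since no label ties the arrays to separate animals, a p-value here reflects how far these samples spread, and that spread may be technical. The smallest p that 2 arrays against 2 allow in a two-sided exact permutation test is 0.333.

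MHC class I molecules display peptides from inside the cell to CD8 T cells and natural killer cells. Proteasomes cut proteins into peptides, and under interferon the catalytic subunits encoded by Psmb8, Psmb9 and Psmb10 replace the constitutive subunits encoded by Psmb5, Psmb6 and Psmb7 to form the immunoproteasome. The Tap1 and Tap2 proteins pump peptides into the endoplasmic reticulum, tapasin (Tapbp) holds the empty class I molecule at that pump, and a heavy chain (H2-K1, H2-D1 or the nonclassical H2-T23, known as Qa-1) pairs with β2-microglobulin (B2m) and a peptide before it moves to the cell surface. The hair follicle is known as an immune-privileged site with low class I display, and interferon is a textbook inducer of these genes.

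The promoters of these genes are shown because the genes are known to share control elements. A further reason was that 8 of the 9 tested genes had both cKO arrays above both WT arrays (26.7% of all genes). Whether promoter elements play a part in these levels was not tested. RefSeq promoter entries of the build GRCm38.p6 were matched by symbol for 9 of the 10 genes. The stretch shown is the 250 bases before the annotated start, 5′ to 3′ on the gene's strand. H2-K1 (chr17:34000334-34000583, minus strand) and H2-D1 (chr17:35262844-35263093, plus strand) encode the classical heavy chains. H2-T23 (chr17:36032702-36032951, minus strand) encodes the nonclassical chain, B2m (chr2:122147437-122147686, plus strand) the light chain and Psmb8 (chr17:34197945-34198194, plus strand) the subunit with the largest difference. The Tap1 stretch (chr17:34187306-34187555, plus strand) is nearly the same DNA as the promoter of Psmb9, which starts 225 bases away on the opposite strand. Capitals mark matches to 2 motifs on either strand, chosen after the sequences were seen: a κB type motif, GGGNNTTNC, and an interferon response type motif, TTTCNNTT.
H2-K1: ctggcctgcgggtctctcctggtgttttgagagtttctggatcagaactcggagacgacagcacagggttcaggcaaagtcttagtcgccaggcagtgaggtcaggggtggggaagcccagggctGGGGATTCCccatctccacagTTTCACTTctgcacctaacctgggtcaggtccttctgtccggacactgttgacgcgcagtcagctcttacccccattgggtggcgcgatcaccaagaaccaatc
H2-D1: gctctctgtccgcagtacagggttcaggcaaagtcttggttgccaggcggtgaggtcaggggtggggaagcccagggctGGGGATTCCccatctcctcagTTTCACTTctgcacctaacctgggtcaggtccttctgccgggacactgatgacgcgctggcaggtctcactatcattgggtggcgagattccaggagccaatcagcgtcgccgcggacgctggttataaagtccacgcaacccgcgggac
H2-T23: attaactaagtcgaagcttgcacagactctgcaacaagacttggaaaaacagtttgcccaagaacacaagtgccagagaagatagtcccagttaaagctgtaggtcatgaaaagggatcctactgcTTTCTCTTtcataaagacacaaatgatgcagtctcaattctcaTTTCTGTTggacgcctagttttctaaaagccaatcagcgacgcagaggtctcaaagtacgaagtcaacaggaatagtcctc
B2m: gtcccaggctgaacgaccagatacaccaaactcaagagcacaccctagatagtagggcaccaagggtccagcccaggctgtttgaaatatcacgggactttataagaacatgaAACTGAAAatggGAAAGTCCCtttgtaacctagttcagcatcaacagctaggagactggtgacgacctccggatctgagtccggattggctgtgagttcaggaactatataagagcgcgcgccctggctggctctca
Tap1: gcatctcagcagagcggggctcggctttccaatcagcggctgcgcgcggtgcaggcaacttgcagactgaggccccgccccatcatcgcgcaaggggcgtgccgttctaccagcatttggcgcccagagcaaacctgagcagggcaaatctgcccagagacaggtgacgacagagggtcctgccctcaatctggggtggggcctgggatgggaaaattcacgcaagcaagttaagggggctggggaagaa
Psmb8: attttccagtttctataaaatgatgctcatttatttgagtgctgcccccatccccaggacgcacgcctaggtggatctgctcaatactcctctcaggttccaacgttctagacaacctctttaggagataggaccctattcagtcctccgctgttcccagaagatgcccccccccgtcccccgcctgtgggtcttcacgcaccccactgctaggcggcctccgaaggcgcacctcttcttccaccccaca

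The κB type motif was in 3 of the 9 promoters (H2-K1, H2-D1 and B2m) and in 13.0% of all 27025 promoter stretches of that length in the table, 1 per gene. As first searched, with 1 more C at its 3′ end, it was in the same 3 promoters and in 4.06% of all, so the share depends on the letters chosen. The interferon response type motif was in 4 of the 9 (those 3 and H2-T23, where it occurred at 2 places) and in 21.7% of all. The cyclic AMP response half-site TGACG was in 5 (17.5% of all) and the CCAAT box, CCAAT, in 7 (34.0%), and these are not in capitals. Tap1 and Psmb9 both enter these counts, although their matches to TGACG and to CCAAT are the same bases of their shared DNA. The H2-K1 and H2-D1 stretches were 87.2% identical over 203 aligned bases, and both hold GGGGATTCC followed by TTTCACTT. The table gives 2 starts for H2-K1, 14 bases apart, and the one farther downstream was used. The capitalised motifs did not overlap each other in these promoters, and a match of letters is no measure of binding. Gene order in the same RefSeq build places Psmb9, Tap1, Psmb8 and Tap2 next to each other with no other protein-coding gene between them, and 8 of the 10 genes lie on chromosome 17, with B2m on chromosome 2 and Psmb10 on chromosome 8.

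The arrays had median log2 intensities of 6.36 to 6.38. Tbx1 itself read 9.54 and 8.88 on the cKO arrays and 10.53 and 10.37 on the WT arrays, a cKO level of 42.4% of WT that did not pass the test (limma adjusted p = 0.317). The labels do not give the deleted part of the gene, so whether this probe set reads it is not known, and these values do not show loss of Tbx1. Of 17 bulge stem cell markers, 16 had a mean above the dim limit. They spanned a wide range, with Krt15, a bulge keratin, at 13.39 to 13.94, Cd34 at 8.85 to 9.46 and Wif1 at 6.36 to 7.57. The WT set 2 array stood apart in the nuclear RNA Malat1, at 12.35 against 9.80 to 10.56 on the others. The cKO set 1 array stood apart in an added control transcript, Dap, whose 3′ minus 5′ difference was 2.95 against 1.74 to 1.82. Differences between genotypes are therefore also given without either of these arrays where that moves the value of a class I gene, a list or a named list gene by over 1.5 times.

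In the comparison of stem cells labelled Tbx1 cKO with WT, most genes of the class I pathway read higher in cKO. No gene of the pathway passed limma's test at an adjusted p under 0.05, a call made for 0.0872% of all genes tested, and none of their probe sets did, against 0.0463% of all. At an unadjusted p under 0.05 limma gave 6 of the 9 genes, against 14.2% of all. The median difference over the 9 genes was 0.56 on the log2 scale, 0.60 in set 1 and 0.76 in set 2, where the median over all genes was 0.03. Values lay above 0 within both sets in 8 of the 9, against 35.8% of all genes. In 8 of the 9 genes both cKO arrays lay above both WT arrays, against 26.7% of all genes. In the probe set used for the other one, H2-D1, the groups overlapped. Both cKO arrays lay below both WT arrays in 0 of the 9, against 19.9% of all. At least 1.5-fold higher values within both sets were found for 4 genes, Tap2, Tapbp, Psmb8 and Psmb10, against 3.04% of all genes, and lower values of that size for 0, against 1.64%. Within set 1 alone 5 of the 9 were at least 1.5-fold higher (6.34% of all genes), and within set 2 alone 7 (9.41%). Of the 23 probe sets above the dim limit, 19 had both cKO arrays above both WT arrays (23.2% of all probe sets), 19 lay above 0 within both sets (31.3%) and 5 were at least 1.5-fold higher in both (2.39%). With the set as a block, limma called 83 genes (1.03%) in place of 7 and 12 probe sets (0.0925%) in place of 6, and again none of the 9 genes, with adjusted p from 0.0537 for Psmb8 to 0.784 for B2m. The list and its direction were known from earlier results of these arrays, so these counts describe it and are no independent evidence.

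**Figure D1:**
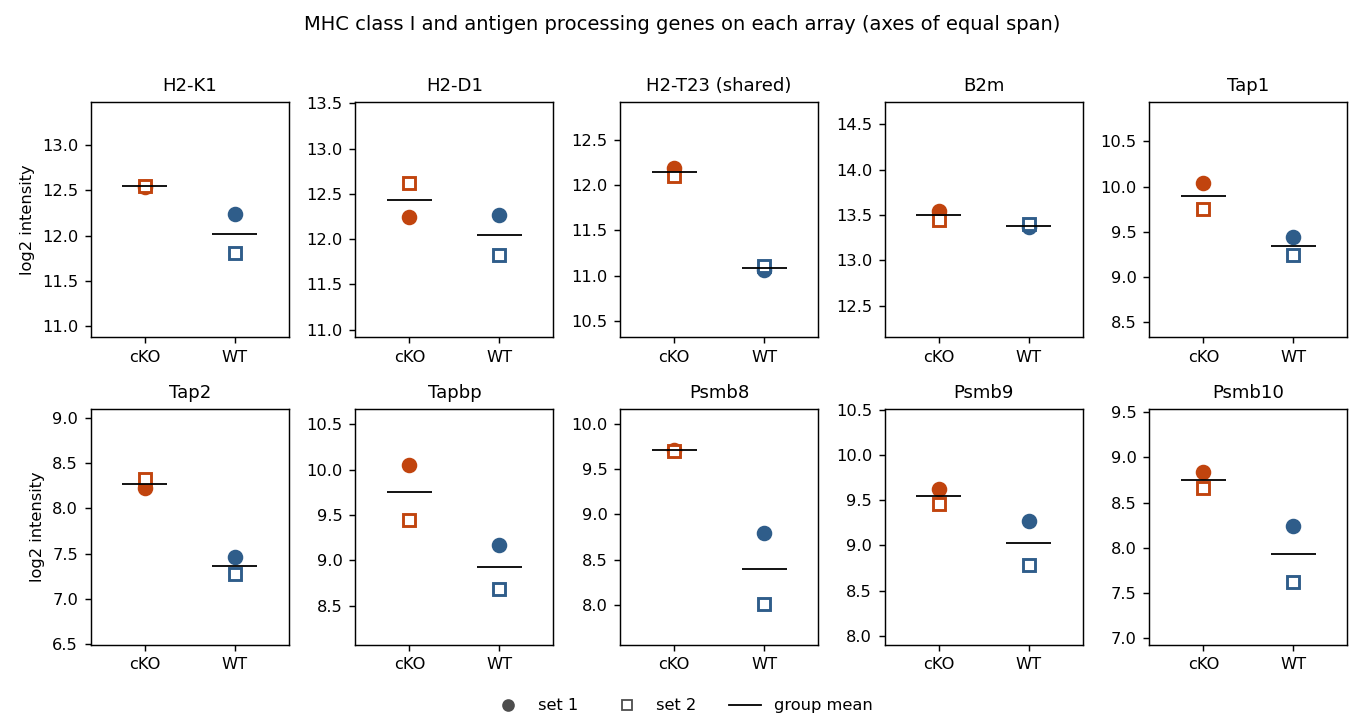
Log2 intensity of the probe set used for each of the 10 genes on each array, with cKO arrays in orange and WT arrays in blue, set 1 as filled circles, set 2 as open squares and group means as lines; each axis spans the same range. In H2-T23, Tap2 and Psmb8 the cKO arrays nearly coincide and lie clear of WT, B2m hardly differs, and in H2-D1 the groups overlap.

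Of H2-K1, H2-D1 and H2-T23, the last, nonclassical gene had the largest difference. The brighter H2-T23 probe set read 12.18 and 12.10 on the cKO arrays and 11.06 and 11.11 on the WT arrays. Both groups were tight, and the gap between them was far wider than the spread within either. Its mean was 12.14 ± 0.06 in cKO and 11.08 ± 0.03 in WT (SD, n = 2), a difference of 1.06 (SE 0.15, limma adjusted p = 0.207 over all probe sets), or 2.08-fold. It was 1.12 in set 1 and 0.99 in set 2, and with any 1 array left out it stayed between 1.02 and 1.10. The second H2-T23 probe set was far dimmer, at 6.77 and 6.63 on the cKO arrays, against 6.92 and 6.32 on the WT arrays, and its groups overlapped, with a difference of 0.08. The 2 probe sets of this gene thus disagree, and both are shared with H2-T-ps.

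H2-K1, a classical heavy chain, read 12.54 and 12.55 on the cKO arrays and 12.23 and 11.81 on the WT arrays. The cKO arrays were alike and above both WT arrays, of which set 2 was the lower. The difference was 0.52 (SE 0.20, limma adjusted p = 0.330), 0.30 in set 1 and 0.74 in set 2, and 0.31 without the WT set 2 array. H2-D1, the other classical heavy chain measured, read 12.25 and 12.62 on the cKO arrays, against 12.26 and 11.82 on the WT arrays. Within set 1 its arrays were nearly equal (-0.02), and within set 2 cKO lay 0.80 above WT. The mean difference of 0.39 (SE 0.23, limma adjusted p = 0.492) moved with the array left out: it was 0.17 if WT set 2 was dropped, 0.20 for cKO set 2 and 0.61 for WT set 1. That the genotype difference depends on the set was not tested, since each set has 1 array a group.

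Classical heavy chain sequences are so alike that probes can bind several of them, and 12 of the probe sets of H2-K1 and H2-D1 end in _x_at, the mark of probes open to such binding. Over the 12 probe sets annotated to either gene that lay above the dim limit, 9 were at least 1.5-fold higher in cKO within set 2 (8.2% of all probe sets) and 0 within set 1 (5.24%). Their set 1 differences ran from -0.07 to 0.37 and their set 2 differences from 0.13 to 0.96. The set 2 difference therefore appeared in most of these probe sets, which share target sequence and are not replicates. The 1 probe set for H2-D1 above the limit that does not end in _x_at read 8.14 and 8.26 on the cKO arrays, against 8.08 and 7.64 on the WT arrays, with differences of 0.06 in set 1 and 0.62 in set 2. A probe set shared by H2-K1 and H2-D1 read 10.11 and 9.96 on the cKO arrays, against 9.86 and 9.31 on the WT arrays. The 4 further H2-D1 probe sets lay below the limit, at 3.50 to 4.77.

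**Figure D2:**
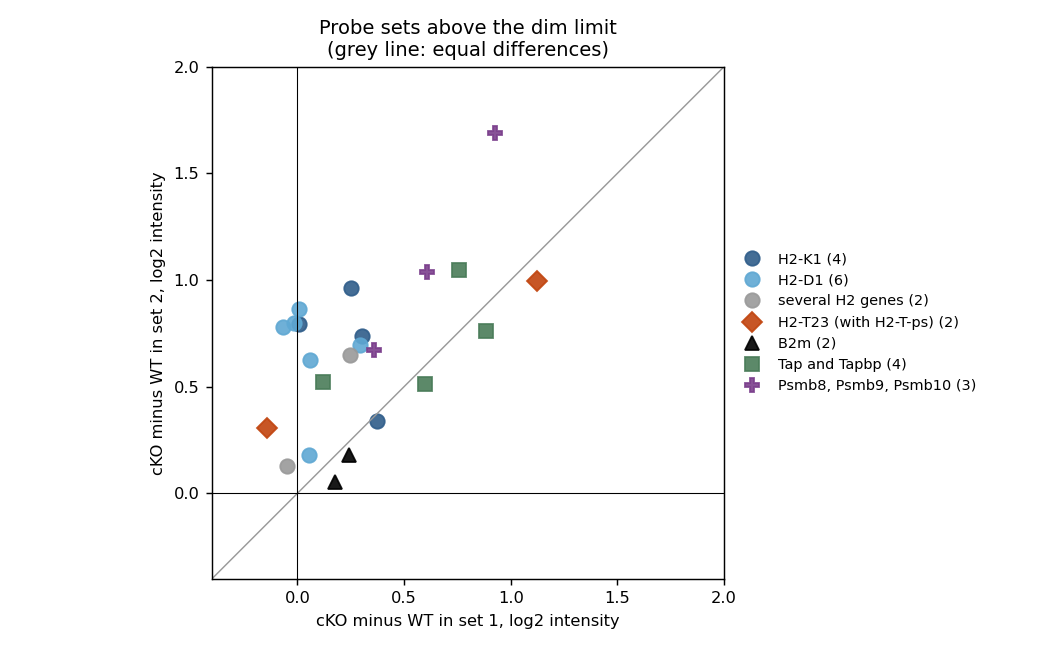
Difference of cKO minus WT in set 1 (horizontal) and in set 2 (vertical), in log2 intensity, for the 23 probe sets of the 10 genes above the dim limit, coloured by gene, with the number of probe sets in parentheses. Most probe sets of H2-K1 and H2-D1 lie at -0.07 to 0.30 in set 1 and at 0.62 to 0.96 in set 2, while the brighter H2-T23 probe set lies near the line of equal differences.

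B2m, the light chain that every classical class I molecule needs, differed least. It read 13.54 and 13.45 on the cKO arrays, against 13.37 and 13.40 on the WT arrays, among the strongest signals of the pathway. The difference was 0.11 (SE 0.16, limma adjusted p = 0.781), 0.18 in set 1, 0.05 in set 2 and 0.07 without the cKO set 1 array. A second B2m probe set read 13.13 and 13.20 on the cKO arrays, against 12.89 and 13.02 on the WT arrays, a difference of 0.21. In both probe sets the groups did not overlap.

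The peptide transporter and its partner read higher on both cKO arrays. Tap2, one chain of the transporter, read 8.22 and 8.32 on the cKO arrays, against 7.46 and 7.27 on the WT arrays. The groups were well apart, and the difference of 0.90 (SE 0.16, limma adjusted p = 0.162) was 0.76 in set 1 and 1.05 in set 2. It stayed between 0.81 and 1.00 with any 1 array left out. Tap1, the other chain, read 10.04 and 9.76 on the cKO arrays, against 9.44 and 9.24 on the WT arrays. Here set 1 was above set 2 in both genotypes, and the difference of 0.56 (SE 0.18, limma adjusted p = 0.298) was nearly the same in both sets, at 0.60 and 0.51. The 3 other Tap1 probe sets lay below the dim limit on average, the highest array at 5.53. Tapbp read 10.05 and 9.45 on the cKO arrays, against 9.17 and 8.69 on the WT arrays, also with set 1 above set 2 in both genotypes. Its difference was 0.82 (SE 0.27, limma adjusted p = 0.298), 0.89 in set 1 and 0.76 in set 2, and 0.52 without the cKO set 1 array. A dimmer Tapbp probe set gave 0.32, with 0.12 in set 1 and 0.52 in set 2.

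The immunoproteasome subunits held the largest single difference. Psmb8 read 9.72 and 9.70 on the cKO arrays, against 8.79 and 8.01 on the WT arrays. The cKO arrays were nearly equal and the WT arrays were spread over 0.78. The difference was 1.31 (SE 0.28, limma adjusted p = 0.186), or 2.47-fold, with 1.90-fold in set 1 and 3.22-fold in set 2, and it was 0.91 without the WT set 2 array. Psmb10 read 8.84 and 8.66 on the cKO arrays, against 8.24 and 7.62 on the WT arrays. Its difference was 0.82 (SE 0.24, limma adjusted p = 0.262), 0.61 in set 1 and 1.04 in set 2, and 0.51 without the WT set 2 array. Psmb9 read 9.63 and 9.45 on the cKO arrays, against 9.27 and 8.78 on the WT arrays. Its difference of 0.51 (SE 0.22, limma adjusted p = 0.362) was 0.36 in set 1 and 0.67 in set 2, and 0.27 without the WT set 2 array. In all 3 genes the WT set 2 array was the lowest, as it was in 8 of the 9 tested genes of the pathway, all but B2m. How often that array was the lowest over all genes was not counted. The median of set 2 minus set 1 within WT was -0.44 over the 9 genes, against -0.09 over all genes.

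The constitutive subunits that these replace did not share the pattern. Psmb5 differed by -0.02, Psmb6 by -0.14 and Psmb7 by -0.34 (-0.14 without the cKO set 1 array), with limma adjusted p of 0.981, 0.783 and 0.479. Within set 1 the differences were -0.31, -0.43 and -0.56, and within set 2 they were 0.28, 0.15 and -0.12. The log2 ratio of each inducible subunit to its counterpart was taken within each array, a measure added after the values were seen. The ratio of Psmb8 to Psmb5 was higher in cKO by 1.32, by 1.23 in set 1 and 1.41 in set 2. For Psmb10 to Psmb7 it was higher by 1.16, with the same value in both sets, and for Psmb9 to Psmb6 by 0.66, 0.79 in set 1 and 0.53 in set 2. Both cKO arrays lay above both WT arrays in all 3 ratios, as they already did in Psmb8, Psmb9 and Psmb10 alone. No share over all genes was counted for such ratios. Such a ratio shows unequal change of its genes and not which of them differed.

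**Figure D3:**
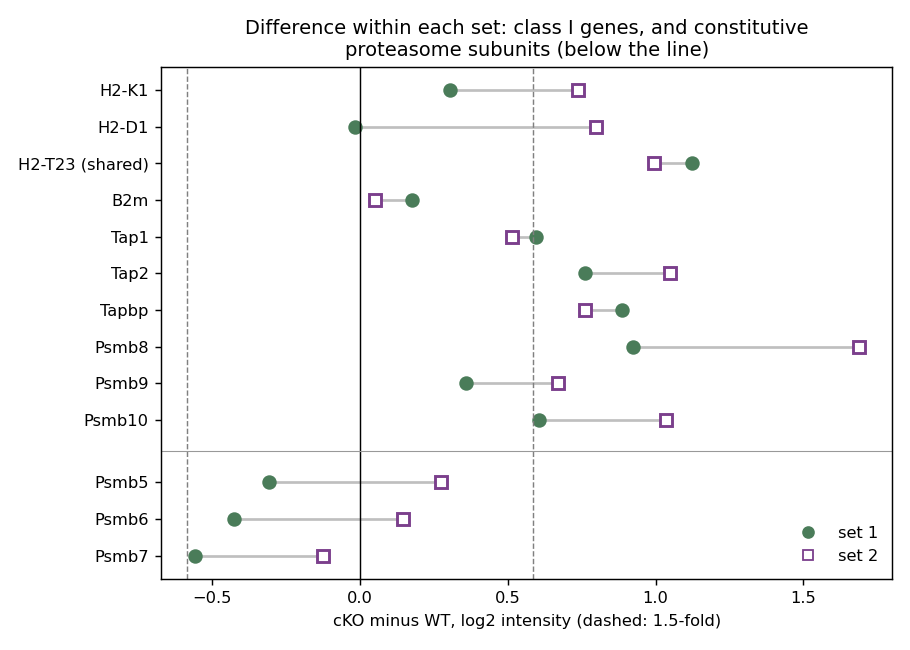
Difference of cKO minus WT in log2 intensity within set 1 (filled circles) and set 2 (open squares) for the 10 genes and, below the line, for 3 constitutive proteasome subunits; dashed lines mark 1.5-fold. Tap2, Tapbp, Psmb8, Psmb10 and the shared H2-T23 probe set lie beyond 1.5-fold in both sets, while the constitutive subunits lie between -0.56 and 0.28.

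No gene of the 12 further lists used here passed limma's test except Plvap and Selp among endothelial markers. Of 22 other class I and class I-like heavy chain genes, 5 could be tested, with a median difference of 0.45. H2-M3, a nonclassical chain that presents formylated peptides, read 6.91 and 6.89 on the cKO arrays, against 5.69 and 5.95 on the WT arrays, a difference of 1.07 (SE 0.17, limma adjusted p = 0.125) with groups well apart. Hfe, the iron-regulating class I-like protein, differed by 0.82 (0.39 without the WT set 2 array), the neonatal Fc receptor Fcgrt by 0.45 and the lipid-presenting Cd1d1 by -0.41. A probe set shared by H2-T9, H2-T22 and H2-T10 read 11.02 and 10.74 on the cKO arrays, against 9.98 and 9.83 on the WT arrays, a difference of 0.98. A probe set shared by H2-Q9 and H2-Q7 followed H2-D1 instead, at -0.02 in set 1 and 0.92 in set 2.

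Of 10 tested genes for other steps of peptide loading, 2 (Erap1 and Pdia3) had both cKO arrays above both WT arrays and 1 (Sec61b, -0.05) below, near the 26.7% and 19.9% of all genes that did so. The median difference was 0.09, and -0.06 without the WT set 2 array. Tapbpl, a tapasin-like peptide editor, differed by 0.39 (0.05 without the WT set 2 array), the peptide-trimming enzyme gene Erap1 by 0.31, the disulfide isomerase gene Pdia3 by 0.18 and the lectin chaperone gene Canx by -0.17 (-0.03 without that array). Of the 7 tested proteasome counterparts and activator genes, Psme1, a subunit of the interferon-induced activator, was the one gene with both cKO arrays above WT, by 0.35, and 4 lay below: Psme3 (-0.37), Psmb7 and the assembly factor genes Psmg1 (-0.29) and Pomp (-0.10). The median of these 7 was -0.14, and it was -0.31 without WT set 2 and -0.07 without cKO set 1. Of 19 tested regulators of class I, 8 had both cKO arrays above both WT arrays and 1, Creb1, below (26.7% and 19.9% of all genes), with a median of 0.20. Irf9, the DNA-binding part of the interferon-activated factor ISGF3, differed by 1.36, Irf7 by 0.91, Irf2 by 0.68 and Rfx5, a factor of MHC promoters, by 0.48. Without the cKO set 1 array the values were 0.90 for Irf9, 0.45 for Irf7 and 0.29 for Rfx5. The limma adjusted p was 0.216 for Irf9 and higher for the others, and with the set as a block it was 0.0424 for Irf9, the 1 of the 19 then called.

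Most type I interferon targets read higher in cKO, and interferon γ targets were mixed, with no gene of either list passing the test. Of 13 tested type I interferon targets, 10 had both cKO arrays above both WT arrays and 1, Ifit2, below, against 26.7% and 19.9% of all genes. The median difference was 1.14, and 0.60 without the cKO set 1 array. Their level was highest on the cKO set 1 array. Centred on each gene's mean, the median was 1.06 on that array, 0.03 on cKO set 2, -0.54 on WT set 1 and -0.83 on WT set 2. The class I pathway genes had 0.40, 0.27, -0.10 and -0.50, so their cKO arrays differed far less from each other. Ifit1, for example, read 8.78 and 6.17 on the cKO arrays, where Psmb8 read 9.72 and 9.70. That pair lies near the ends of the lists, which overlap: within cKO, set 2 minus set 1 was -0.60 for Tapbp and -0.22 for Ifit2. Oasl2 differed by 3.04, Usp18 by 2.79, Rtp4 by 2.65 and Ifit1 by 2.50, with limma adjusted p of 0.219 to 0.294. Without the cKO set 1 array these were 1.88, 1.27, 1.43 and 1.20. With the set as a block limma called 4 of the 13, Oasl2, Oas1a, Rtp4 and Ifi35, with adjusted p of 0.0239 to 0.0285. Of 11 tested interferon γ targets, 6 had cKO above WT and 3 (Iigp1, Cxcl9 and Wars) below (26.7% and 19.9% of all genes), with a median of 0.53 that was 0.33 without cKO set 1, and the block fit called 1, Irgm1 (limma adjusted p = 0.0239). The GTPase genes Irgm1, Gbp3, Gbp7 and Igtp differed by 1.47, 1.22, 1.16 and 1.05, and without cKO set 1 the values of Gbp3, Gbp7 and Igtp were 0.43, 0.67 and 0.49, while the chemokine gene Cxcl9, a classic interferon γ target, differed by -0.59 with both cKO arrays below both WT arrays. The part of interferon signalling in the class I values was not tested.

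**Figure D4:**
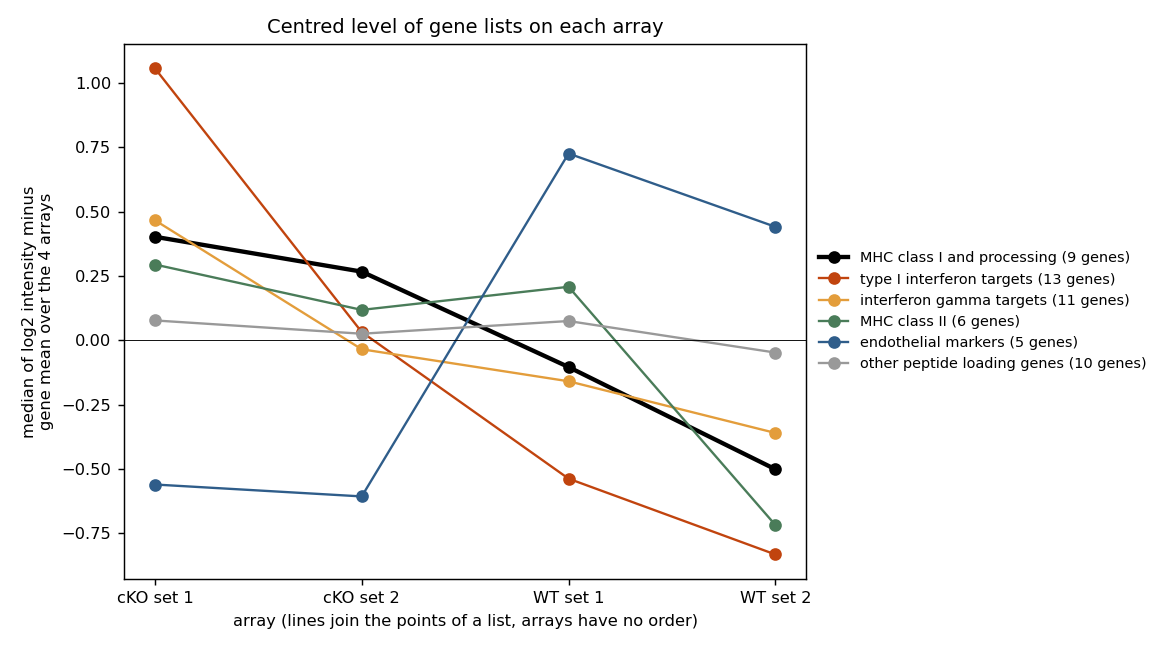
Median log2 intensity of each gene list on each array after subtracting each gene's mean over the 4 arrays; lines join the points of a list, and the arrays have no order. The class I genes (black) are at 0.40 and 0.27 on the cKO arrays, type I interferon targets at 1.06 and 0.03, and the class I genes, both interferon lists and MHC class II genes all have their lowest value on the WT set 2 array, at -0.72 for class II.

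Other cell types of skin also carry class I, and levels of their markers differed by genotype or on 1 array. The sum of linear intensity over 18 endothelial markers was 448 to 451 in cKO and 1250 to 1530 in WT. Plvap, of endothelial fenestrae, fell by 3.79 and Selp, P-selectin, fell by 4.24 (limma adjusted p = 0.00652 and 0.00408). With the set as a block limma also called the endothelial marker Esam (-1.17, limma adjusted p = 0.0381). The endothelial definers Pecam1 and Kdr lay below the dim limit on all 4 arrays, as Cdh5 did on 3. The sum over 22 leukocyte markers was 556 to 569 in cKO and 482 to 552 in WT. Only 2 of these markers, Csf1r and Fcer1g, were above the limit, and Ptprc, Cd207 and Cd3e, which define leukocytes, Langerhans cells and T cells, were below it on all arrays. Over 10 MHC class II and related genes, of antigen-presenting cells, the sum was 1204 to 1337 in cKO and 870 to 1210 in WT. Ifi30 read highest of these, at 9.12 to 9.51, and so weighed most in the sum. H2-DMb2, H2-Oa and Ciita lay below the limit on all arrays. Of the 6 tested genes 2, Cd74 and Ifi30, had both cKO arrays above both WT arrays (26.7% of all genes). The median difference of the 6 was 0.36, and 0.01 without the WT set 2 array. H2-Aa read 7.40 and 6.89 on the cKO arrays, against 7.31 and 6.18 on the WT arrays. Cd74 read 6.29 and 6.00 on the cKO arrays, against 6.00 and 5.14 on the WT arrays. In both genes the lowest array was WT set 2, as it was in 8 of the 9 tested class I genes, a count without a share over all genes. Summed levels of 9 fibroblast markers were 1024 to 1314 in cKO and 705 to 716 in WT, with Col1a1 and Pdgfra below the limit on all arrays. Thy1 (1.46) and Col6a1 (1.11) read higher in cKO, and Dcn (-0.42) and Col1a2 (-0.14) lower, at -0.23 and -0.08 without WT set 2. Of these 4 tested fibroblast markers the block fit called 1, Thy1 (limma adjusted p = 0.0211). Summed levels of 7 melanocyte markers were 430 to 442 in cKO and 311 to 397 in WT, with Tyr below the limit on all arrays. Of the 4 tested, 2 had both cKO arrays above both WT arrays (26.7% of all genes), Mitf by 0.61 and Sox10 by 0.34. In Pmel and in Dct, a defining marker, the groups overlapped. Dct read 6.22 and 6.72 on the cKO arrays, against 6.07 and 6.41 on the WT arrays. Of 16 tested bulge stem cell markers, 8 had both cKO arrays above both WT arrays and 1, Lhx2, below, against 26.7% and 19.9% of all genes, with a median of 0.32. In sorted bulk samples fewer cells of a type and less RNA per cell cannot be told apart, and the part of such cells in the class I values was not tested.

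The comparison of set 2 with set 1 asked whether the class I genes follow the labelled state of the follicle. No gene of the 8031 passed limma's test (0%), with 230 at an unadjusted p under 0.05 (2.86%), and none of the 9 class I genes was among these. Of probe sets 1 passed (0.00771%), and with genotype as a block 1 gene (0.0125%) and 2 probe sets (0.0154%) did, with none of the 9 genes called. The median over the 9 was -0.24, against -0.05 over all genes. In none of the 9 did the sets separate. Each set holds 1 array of each group, so a gene with both cKO arrays above both WT arrays cannot separate by set. That fixed the outcome for 8 of the 9, so this count does not bear on the sets. Over all genes, both set 2 arrays lay below both set 1 arrays in 19.5% and above them in 11.1%. The median of -0.24 came mostly from WT, where the median of set 2 minus set 1 was -0.44, against -0.09 in cKO. In WT, Psmb8 differed by -0.78 and Psmb10 by -0.61, and these 2 of the 9 genes were at least 1.5-fold lower in set 2, against 5.75% of all genes. In cKO, Tapbp was the 1 such gene, at -0.60, against 2.99% of all. Without the WT set 2 array the median was 0.12, so the direction of this comparison rested on that array, and without the cKO set 1 array it was -0.05.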

How the data were processed

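Total RNA of sorted cells was made into biotin-labelled cRNA by the Affymetrix protocol, per the labels' protocols. The authors deposited 1 linear intensity per probe set and array. Per the submitters' processing notes RMA was used, which corrects background, normalises and summarises probes; no version or setting is stated. It gives no detection call and compresses differences of dim probe sets.

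Intensities were converted to log2. Names came from the platform annotation, where 20380 of 22690 probe sets had 1 symbol. Each of 12384 genes was represented by its brightest such probe set, and genes with a mean below percentile 40 (log2 5.40), Xist and Y-linked genes were left out. limma 3.58.1 in R 4.3.3 (lmFit, eBayes, all 4 arrays, no covariate) tested 8031 genes, and 12968 probe sets, with Benjamini-Hochberg adjustment. limma was tested on simulated data. The set carries a labelled state, so it was also fitted as a block. Across genes, arrays of one set deviated from their groups with a correlation of r = 0.192. The 10 genes, the other lists and the tests were chosen with earlier results of these data known. Named genes were the 10 genes, up to 4 genes per list with the largest difference, defining markers, Tbx1 and the 6 genes of nearest profile, and others were chosen after their values were seen. Alternatives changed the filter, probe set rule, normalisation, centring, variance model, block and arrays.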

Additional observations from a re-analysis of the deposited data

Results flagged for a closer look

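In the probe set used, the genotype difference of H2-D1 had opposite signs in the sets, which drew attention to it. It was -0.02 in set 1 and 0.80 in set 2, a gap of 0.81 on the log2 scale, and with 1 array per genotype and set the gap was not tested. The sign in set 1 depended on the probe set. Over the 7 annotated to H2-D1 above the dim limit, set 1 differences ran from -0.07 to 0.29. In 5 of these 7 both cKO arrays lay above both WT arrays (23.2% of all probe sets).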

How the results depend on the processing

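All 107 alternative values of the cKO minus WT differences of the 10 genes kept their direction and stayed above the threshold of 0.05. Under every alternative run, 8 or 9 of the genes had all cKO arrays used above all WT arrays used, where the share of all genes was 26.7% with 4 arrays and 35.6% to 47.8% with 1 left out. Of 8031 genes limma called 7 between genotypes, 28 with a variance trend and robust fitting, 83 with the set as a replicate block and 2 to 16 with 1 array left out (16 without the cKO set 2 array, 2 without the WT set 2 array). Of probe sets it called 6, and 11, 12 and 0 to 4 in the same order (0 without the WT set 1 array, 2 without cKO set 1, and 2 without WT set 2). Between sets it called 0 genes and 1 probe set, and with the replicate block 1 gene and 2 probe sets. Without the filter on dim genes, or with any array left out, it called 0 probe sets. The block changed no call of the 10 genes. The median cKO minus WT over the genes was 0.69 without probe sets ending in _x_at, which leaves out H2-K1, and 0.45 to 0.76 with 1 array left out. The median of set 2 minus set 1 ran from -0.57 to 0.12 with 1 array left out and was 0.12 without the WT set 2 array. For single genes that comparison reversed in 14 of 107 alternative values. With the mean of its probe sets B2m gave 0.0331. With 1 array left out the ranges were -0.12 to 0.0578 for B2m, -0.44 to 0.36 for H2-D1, -0.57 to 0.16 for H2-K1, -0.58 to 0.54 for H2-T23, -0.92 to 0.12 for Psmb10, -1.25 to 0.44 for Psmb8, -0.67 to 0.0035 for Psmb9, -0.54 to 0.0556 for Tap1 and -0.57 to 0.48 for Tap2. The cause was not tested. Counts within both sets need all 4 arrays and were not made with 1 left out. The number of arrays limits the precision, and differences of probe sets near the dim limit are compressed.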

Other observations

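The genes whose pattern over the 4 arrays was most like the mean of the 9 class I genes came from outside the lists used here. By Euclidean distance between centred log2 profiles they were Peli2 (0.07), Map3k20 (0.07), Hk1 (0.07), Axl (0.08), Pkp1 (0.09) and P3h4 (0.09). The nearest class I genes lay farther from their own mean, H2-K1 at 0.16 and Psmb9 at 0.17. Axl, a receptor tyrosine kinase gene, read 9.03 and 9.03 on the cKO arrays, against 8.52 and 8.16 on the WT arrays, and Pkp1, a desmosomal plaque gene, read 12.34 and 12.29 on the cKO arrays, against 11.96 and 11.49 on the WT arrays. In all 6 genes the cKO arrays were above both WT arrays and WT set 2 was the lowest. This follows from how they were picked, since the class I mean has that same pattern. With 4 arrays such likeness is a description only.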
